A study of Mus musculus with 38 samples.

Results

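Intestinal organoids from Ppara-null mice were compared with organoids from wild-type mice while both were grown with the agonist GW501516. The comparison uses 10 of the 38 samples of the series, chosen by treatment and genotype alone: 5 Ppara-null and 5 wild-type libraries. Another 27 libraries, 37 in all, entered the same statistical model and supplied the genotype difference in other pairs of groups.

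All organoids came from crypts of C57BL6 mice embedded in 65% matrigel and were collected after 8 days and 2 passages. The 10 libraries compared had 1 uM GW501516 in 0.1% DMSO, and the vehicle groups had 0.1% DMSO. The other genotypes were Ppard-fl/fl and Ppard-fl/fl with Ppara-null, for which the labels name no recombinase. Those pairs gave 5 Ppara-null against 5 wild-type libraries in vehicle, 5 double-genotype against 3 Ppard-fl/fl libraries under GW501516, and 4 against 5 in vehicle. One sample of the series was left unassigned because its title names Ppard-fl/fl under GW501516 and its genotype label the double genotype, and its column may be among the 3 libraries used for the first. The labels do not say whether the libraries of a group came from separate animals or cultures, so p-values measure only the spread between these libraries.

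Ppara encodes PPARα and Ppard encodes PPARδ, nuclear receptors that pair with RXR and bind a direct repeat of AGGTCA near genes of fatty acid uptake, binding and oxidation. GW501516 is a synthetic agonist made to activate PPARδ. In the small intestine PPARα is best known for driving fatty acid binding proteins, peroxisomal enzymes and mitochondrial oxidation when dietary fat is high. The comparison asks what is different in agonist-treated organoids when PPARα is missing.

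RNA was profiled as 3′ tags, and the deposited values are counts per gene. Total counts in the 10 libraries ran from 396214 to 514691 with a median of 453505, and 10081 to 10968 genes had a count. By Xist and Y-linked counts, 2 libraries of each genotype were Xist-high and 3 Y-high. Mitochondrially encoded transcripts took 7.55% to 10.6% of counts. No 2 libraries of a group were copies: over the 20 within-group pairs the chi-square per degree of freedom was 1.996 to 5.61. Libraries are numbered here in column order, and libraries 1 to 3 of each group carry column numbers from 1 to 32 while libraries 4 and 5 carry numbers from 37 to 60. Along the leading principal component, which held 21.7% of the variance, Ppara-null libraries 1 to 3 lay at -17.6 to -22.2 and the other 7 libraries at -3.43 to 19.95. The 5 epithelial markers Epcam, Krt8, Krt18, Cdh1 and Vil1 had at least 20 counts in every library. Their summed level was 915 to 1902 CPM (counts per 1000000) in wild type and 1002 to 1368 CPM in Ppara-null. All 5 stromal markers (Col1a1, Col1a2, Col3a1, Dcn and Vim), 3 of 4 immune markers and 3 of 4 tuft cell markers had 0 counts in all 10 libraries.

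Ppara itself was the check of the labels. It lies on mm10 chromosome 15 at 85734983 to 85802819 (ENSMUSG00000022383). Wild-type libraries 1 to 5 had 11, 5, 2, 9 and 11 counts of Ppara, and Ppara-null libraries had 1, 2, 0, 3 and 2. The null libraries were low throughout but overlapped the third wild-type library. The level was 16.4 ± 8.06 CPM in wild type and 3.30 ± 2.29 CPM in Ppara-null (SD, n = 5 each). For Ppara the fitted log2 fold change was -2.18 ± 0.56 (± is the SE for fold changes throughout), with 95% limits of -3.32 and -1.05. It did not pass at 0.05 (adjusted p = 0.156 by edgeR's quasi-likelihood F test, after Benjamini and Hochberg over 4902 genes). Among the alternatives run, Ppara passed only without a filter on low counts (adjusted p = 0.0166, edgeR). In that setting the adjusted p of another gene fell to 1.31e-92 (edgeR), so a pass there alone is not read as a call. The mean of the other 3 Ppara pairs, which share no library with this comparison, was -2.21 ± 0.36 (adjusted p = 0.000123, edgeR). The labels do not give the deleted part of Ppara, so a 3′ tag need not lie in it.

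The related receptors were thinly counted. Pparg, which encodes PPARγ, had 7 to 14 counts in wild type and 6 to 16 in Ppara-null, a log2 fold change of 0.10 with a 95% interval from -0.48 to 0.69. Ppard had 1 or 2 counts in each wild-type library, and 0 in each Ppara-null library but the fourth, which had 4. At this depth no difference in Ppard was detectable.

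Across all genes the genotype difference was small. Of 4902 genes tested, 9 passed at an adjusted p of 0.05 by edgeR's quasi-likelihood test, which is 0.184% of them, and all 9 were higher in Ppara-null. At an unadjusted p under 0.05 there were 243 genes, or 4.96% of those tested, of which 109 were higher and the rest lower. All 5 Ppara-null libraries lay above all 5 wild-type libraries for 16 genes (0.326% of those tested) and below them for 7 (0.143%). Of the 9 genes, 5 were processed pseudogenes of ribosomal protein genes, 3 encoded proteins and 1 was a noncoding transcript. Pseudogenes made up 78 of the genes tested, and 25.6% of them had an unadjusted p under 0.05 (19 of those 20 higher), against 4.56% of 4689 protein-coding genes.

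The count of 9 rested on particular libraries. Without the libraries whose column names carry a suffix 2, which here are library 1 of each genotype and further libraries of other groups, no gene passed in edgeR's test (lowest adjusted p = 0.147), while 202 genes had an unadjusted p under 0.05. That setting was run with edgeR only. With all libraries, DESeq2 also called 9 genes, 8 of them the same, and limma-trend called 5. Without Ppara-null library 1 alone there were 5 calls, all pseudogenes, and without wild-type library 5 there were 5. Fitted to only the 10 libraries compared, 3 genes passed, all pseudogenes: Gm6278, Gm9625 and Gm8420. In that fit 6 of the 9 genes were tested, and Itch, Rep15, Ccdc62 and AA465934 did not pass. Fitted to the libraries numbered 1 to 32 the comparison gave 19 calls, 13 higher and 6 lower, and fitted to those numbered 37 to 60 it gave 2. With no filter on low counts it gave 58, of which 41 were higher and 17 lower. The lowest adjusted p in that setting was 1.31e-92, for Gm6278, against 0.00707 with the filter (both edgeR). Passes seen only without a filter are therefore given as values and not as calls.

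The pseudogene calls came from near-copies of ribosomal protein messages. Processed pseudogenes are reverse-transcribed messages that were inserted elsewhere in the genome, so a short tag from one can match the other. The called copies are printed here beside the end of the coding sequence of the gene they most resemble (their parent), as aligned windows of 75 bases from the GENCODE transcripts of mm10. Bases that differ within a pair are in capitals, and they are the only letters by which a tag from this stretch could be placed.
Gm6278: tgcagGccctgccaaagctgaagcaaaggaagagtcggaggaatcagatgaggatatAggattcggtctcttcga
Rplp0 beside Gm6278: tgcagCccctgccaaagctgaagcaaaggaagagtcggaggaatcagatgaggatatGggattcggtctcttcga
Gm9625: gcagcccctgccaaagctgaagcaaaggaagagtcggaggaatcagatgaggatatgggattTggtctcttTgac
Rplp0 beside Gm9625: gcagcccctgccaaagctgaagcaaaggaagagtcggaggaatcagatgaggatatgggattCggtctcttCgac
Gm8420: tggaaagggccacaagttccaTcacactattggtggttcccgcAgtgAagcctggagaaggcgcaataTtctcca
Rpl15 beside Gm8420: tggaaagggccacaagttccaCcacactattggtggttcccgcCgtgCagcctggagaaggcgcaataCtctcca
Rpl30-ps9: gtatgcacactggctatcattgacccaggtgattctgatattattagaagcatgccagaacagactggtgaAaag
Rpl30 beside Rpl30-ps9: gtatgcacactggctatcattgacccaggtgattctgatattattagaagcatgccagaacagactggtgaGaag
Rps15a-ps8: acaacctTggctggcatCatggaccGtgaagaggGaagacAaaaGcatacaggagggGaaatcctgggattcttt
Rps15a beside Rps15a-ps8: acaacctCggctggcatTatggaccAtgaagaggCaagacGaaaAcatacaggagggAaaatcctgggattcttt

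The windows lie on mm10 at chr16:85644948-85645022 (plus strand) for Gm6278, chr13:67811123-67811197 (plus) for Gm9625, chr1:51940666-51940740 (minus) for Gm8420, chrX:105278640-105278714 (minus) for Rpl30-ps9 and chr4:53791070-53791144 (minus) for Rps15a-ps8. The windows of the parents lie in coding exons, and that of Rpl30 spans an intron. Over the aligned coding bases, Rpl30-ps9 differs from Rpl30 at 2 of 342, Gm9625 from Rplp0 at 24 of 951, and Rps15a-ps8 from Rps15a at 30 of 387. Within the windows the differences number 1 for Rpl30-ps9, 2 each for Gm6278 and Gm9625, 4 for Gm8420 and 7 for Rps15a-ps8.

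Gm6278 (ENSMUSG00000116972), a copy of the large-subunit stalk protein gene Rplp0, had 6, 6, 1, 14 and 4 counts in wild-type libraries 1 to 5. In Ppara-null it had 277, 128, 116, 366 and 180. Every null library was far above every wild-type library. The levels were 14.1 ± 12.2 and 457.4 ± 210.6 CPM (SD, n = 5 each), a log2 fold change of 5.03 with an SE of 0.92 (adjusted p = 0.00707, edgeR). It was 5.31 in the libraries numbered 1 to 32 and 4.83 in those numbered 37 to 60.

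Gm9625 (ENSMUSG00000097906), also a copy of Rplp0, had 0, 0, 0, 2 and 3 counts in wild type. In Ppara-null it had 29, 14, 20, 33 and 14, again with no overlap. On the log2 scale it differed by 4.29 ± 0.84 (adjusted p = 0.00929, edgeR). The gene overlaps an annotated gene on the opposite strand, and the strand setting of the authors' counting is not given in the sources used here.

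Gm8420 (ENSMUSG00000072324), a copy of the large-subunit gene Rpl15, had 2, 5, 4, 10 and 7 counts in wild type. In Ppara-null it had 169, 149, 131, 12 and 60. The fourth null library was only just above the highest wild-type library in counts, and just below it in CPM (24.1 against 24.7). The log2 fold change was 4.22 ± 0.80 (adjusted p = 0.00707, edgeR), with 5.32 in the libraries numbered 1 to 32 and 2.04 in those numbered 37 to 60.

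Rpl30-ps9 (ENSMUSG00000085791) had 2, 5, 1, 1 and 0 counts in wild type and 67, 48, 60, 31 and 0 in Ppara-null. Rps15a-ps8 (ENSMUSG00000084403) had 6, 8, 4, 1 and 1 in wild type and 85, 250, 125, 64 and 1 in Ppara-null. Each was high in 4 null libraries and at the wild-type level in the fifth. Their log2 fold changes were 4.44 ± 0.84 (adjusted p = 0.00707) and 4.66 ± 0.98 (adjusted p = 0.0156, both edgeR). Rps15a-ps8 and Rps13-ps1, below, were named after their values were seen.

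**Figure D1:**
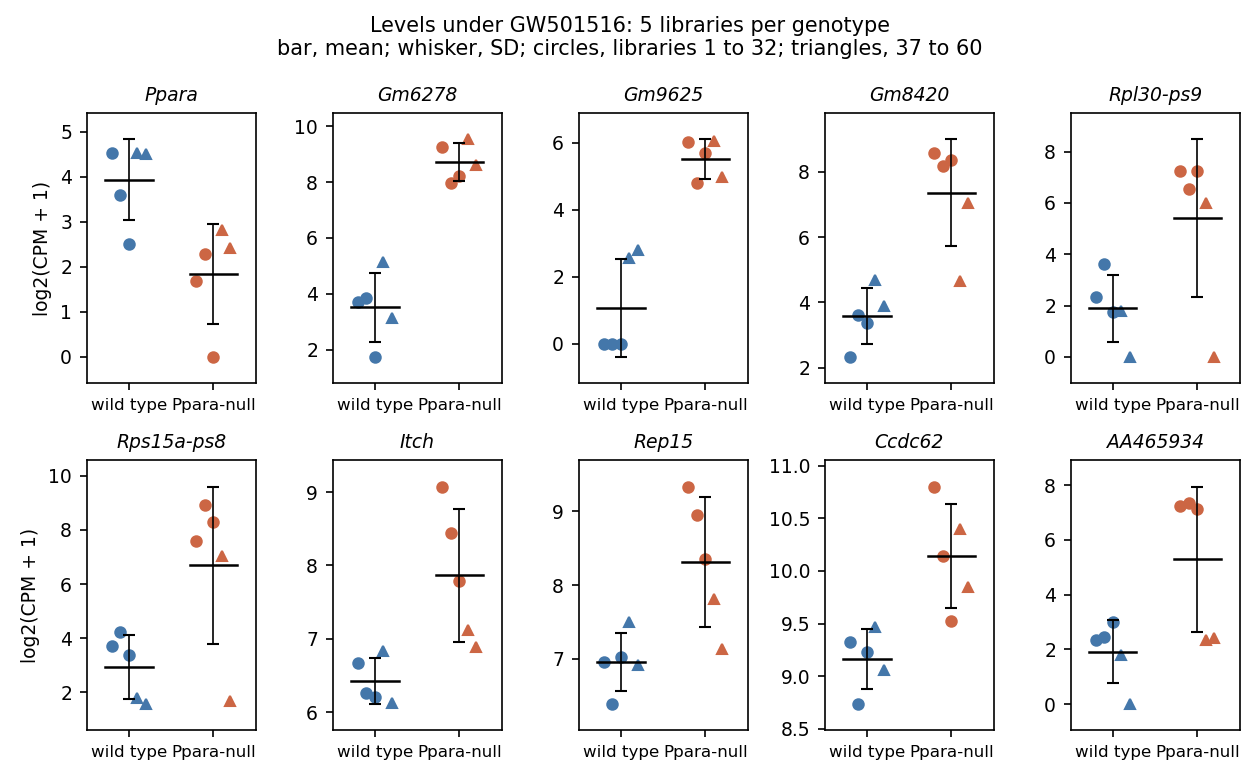
Level of Ppara and of the 9 genes that passed, as log2 of CPM plus 1, in each of 5 wild-type (blue) and 5 Ppara-null (orange) libraries grown with GW501516. The bar is the mean of the log2 values and the whisker the SD; circles are libraries numbered 1 to 32 and triangles those numbered 37 to 60, and AA465934 is high only in the 3 null circles (55 to 83 counts against 2 in each null triangle).

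None of the parent genes passed, and all 5 had a log2 fold change below 0. Rplp0, the parent of both Gm6278 and Gm9625, had 1517 to 2296 counts in wild type and 1288 to 1777 in Ppara-null, a log2 fold change of -0.37 ± 0.11 that did not pass (adjusted p = 0.467, edgeR). Rpl15 had -0.04 ± 0.10, Rpl30 -0.04 ± 0.20 and Rps15a -0.12 ± 0.23, with intervals across 0. Rps13, a small-subunit gene, had 708, 624, 726, 645 and 767 counts in wild type and 434, 227, 193, 526 and 736 in Ppara-null. Its copy Rps13-ps1 had 14, 6, 33, 26 and 0 counts in wild type and 220, 488, 406, 294 and 0 in Ppara-null. The null libraries with the most tags on the copy had the fewest on the parent, and library 5 of both genotypes had none on the copy. Rps13 had a log2 fold change of -0.77 ± 0.28 and Rps13-ps1 one of 4.12 ± 0.97, and neither passed (adjusted p = 0.652 and 0.0566, edgeR). With a block for the run of library numbers, Rps13-ps1 passed (adjusted p = 0.0104, edgeR), as it did with the Xist against Y-linked covariate, and both genes passed within libraries 1 to 32 and without a filter.

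When the counts of each pseudogene were added to its parent, a setting chosen after the data were seen, none of these genes passed. Rps13 with its 2 copies had 1713 ± 163.6 CPM in wild type and 1752 ± 65.6 CPM in Ppara-null (SD, n = 5 each), a log2 fold change of 0.03 ± 0.11. The sum for Rplp0 with its 2 copies had -0.17 ± 0.10, that for Rpl15 with its 4 copies 0.09 ± 0.10, that for Rpl30 0.03 ± 0.20 and that for Rps15a with its 3 copies 0.003 ± 0.23. These last 4 parents held a larger part of their sums than Rps13, which had 911.9 CPM of 1752 CPM in Ppara-null. In Ppara-null, Rplp0 alone had 3288 CPM of a summed 3793 CPM, and Rpl30 2031 CPM of 2122 CPM. Adding the copies still moved Rplp0 from -0.37 ± 0.11 to -0.17 ± 0.10 and Rpl15 from -0.04 to 0.09. Because the parent is the larger part, a sum that does not pass says little about its copies. In the fit with summed counts 4 genes passed: Itch, Rep15, Ccdc62 and AA465934. The same 4 passed with pseudogenes left out.

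**Figure D2:**
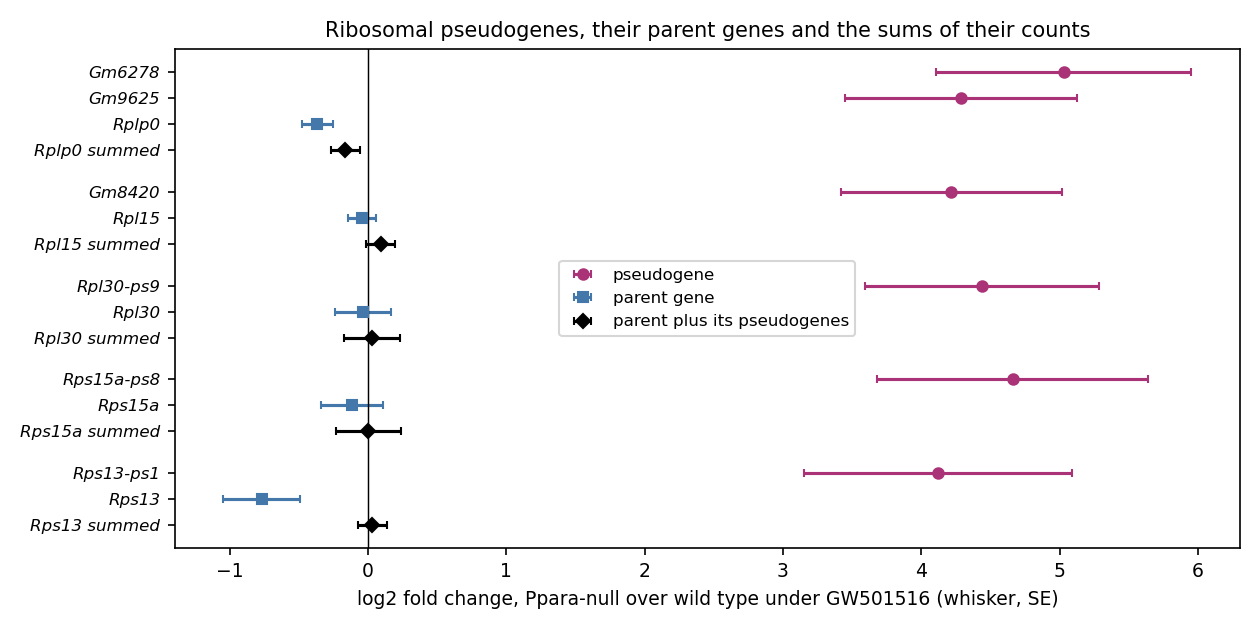
Log2 fold change of Ppara-null over wild type under GW501516 for 6 pseudogenes (purple circles), their 5 parent genes (blue squares) and the parents with all their tested copies summed (black diamonds); whiskers are SE from edgeR, and from the fit with summed counts for the diamonds. The copies lie between 4.12 and 5.03, and the sums between -0.17 and 0.09. For Rplp0, Rpl15, Rpl30 and Rps15a the parent holds a larger part of the sum than for Rps13, so these sums say little about the copies.

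Itch (ENSMUSG00000027598, chromosome 2, 155133509 to 155226855) encodes an E3 ubiquitin ligase that marks membrane and signalling proteins for degradation. It had 50, 34, 31, 46 and 35 counts in wild type and 242, 178, 87, 69 and 54 in Ppara-null. All null libraries were above all wild-type libraries, the first 3 by the most. The levels were 86.5 ± 19.6 and 272.1 ± 173.7 CPM (SD, n = 5 each), a log2 fold change of 1.68 ± 0.31 (adjusted p = 0.00707, edgeR). Fitted within runs of library numbers it was 2.15 for 1 to 32 and 0.55 for 37 to 60.

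Rep15 (chromosome 6, 147032584 to 147034245) encodes an effector of the endosomal recycling GTPase Rab15. It had 61, 37, 55, 73 and 61 counts in wild type and 290, 253, 129, 111 and 64 in Ppara-null. The fifth null library lay within the wild-type range, at 139.8 CPM against up to 180.1 CPM. The fitted difference was 1.55 ± 0.32 on the log2 scale (adjusted p = 0.0126, edgeR), with 2.13 in the libraries numbered 1 to 32 and 0.32 in those numbered 37 to 60.

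Ccdc62 (chromosome 5, 123930679 to 123969895) encodes a coiled-coil protein best known from the testis. Its counts were 318, 190, 255, 287 and 270 in wild type and 801, 580, 292, 671 and 421 in Ppara-null. In CPM the groups did not overlap, at 581.8 ± 108.2 and 1183 ± 405.9 CPM (SD, n = 5 each). The log2 fold change was 1.03 ± 0.21 (adjusted p = 0.0139, edgeR), and it was alike in both runs, 1.14 and 0.91.

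AA465934 (chromosome 11, 83291699 to 83294632) is annotated as a noncoding transcript that contains the small nucleolar RNA gene Snord7. It had 2, 2, 3, 1 and 0 counts in wild type and 67, 83, 55, 2 and 2 in Ppara-null. Only null libraries 1 to 3 were high, and the other 2 were at the wild-type level. The log2 fold change was 4.62 ± 0.93 (adjusted p = 0.0118, edgeR), 4.81 in the libraries numbered 1 to 32 and 1.73 in those numbered 37 to 60. Those 3 null libraries are also the ones apart on the first principal component, whose part in the result was not tested.

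The transcript ends of the called genes were compared with those of other genes, since 3′ tags fall there. At least 100 bases of the last 300 matched another gene at 90% identity or more for 8 of the 9 called genes, against 45.1% of all genes tested. The exception was AA465934, with no match. The 5 called pseudogenes are copies of a parent gene, so a match was given in advance for them. The protein-coding calls Itch, Rep15 and Ccdc62 each had a match, beside 44.1% of the protein-coding genes tested. The end of Itch matched 183 other genes and that of Rep15 178, while that of Ccdc62 matched 1. Itch also overlaps an annotated gene on the opposite strand, and Ccdc62 one on its own strand, so tags of these genes are uncertain. The part of shared ends in the results was not tested.

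Just past the threshold lay Psca (chromosome 15, 74714839 to 74717069), a GPI-anchored surface protein of the Ly6 family. It had 0, 1, 3, 1 and 1 counts in wild type and 10, 5, 33, 11 and 12 in Ppara-null. All null libraries were above all wild-type libraries. On the log2 scale the difference was 3.46 ± 0.81, which did not pass (adjusted p = 0.0566, edgeR), while DESeq2 and limma-trend called it (adjusted p = 0.00825 and 0.0369). It also passed in edgeR with a block for the run of library numbers (adjusted p = 0.0158) and with the Xist against Y-linked level as a covariate (adjusted p = 0.0346). The end of Psca matched no other gene. Mptx1, a mucosal pentraxin, had 3.99 ± 1.08 (adjusted p = 0.216, edgeR) from 0 to 2 counts in wild type and 18, 18, 46, 2 and 1 in Ppara-null, high in libraries 1 to 3 only.

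Among the genes with the next smallest p that were lower in Ppara-null, none passed. Aldh3a2, the fatty aldehyde dehydrogenase, had 19 to 38 counts in wild type and 9 to 19 in Ppara-null, with -0.86 ± 0.23 (adjusted p = 0.176, edgeR). Churc1, a zinc-binding transcriptional regulator, had -1.05 ± 0.31, from 39 to 50 counts in wild type to 11 to 33 in Ppara-null with no overlap. Atp6v1a, the catalytic subunit of the vacuolar proton pump, had -0.60 ± 0.18, also with no overlap in CPM. The complex I subunit Ndufa12 had -0.55 ± 0.16 and Top2a, the topoisomerase of dividing cells, -0.57 ± 0.17. Higher without passing were Sh3glb1, a membrane-curvature protein, at 0.47 ± 0.14, and the kinase Alpk2 at 1.45 ± 0.41. Tags of Churc1, Atp6v1a and Alpk2 are uncertain too, since their ends matched 210, 171 and 172 other genes and Churc1 overlaps Fntb on its own strand. The ends of Ndufa12 and Top2a matched 1 other gene each. With the counts of its pseudogene Gm15920 added, Ndufa12 had -0.47 ± 0.15. Churc1 passed without a filter (adjusted p = 0.00194, edgeR).

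The same genotype difference could be read in 3 other pairs of groups that share no library with this one. The labels do not say whether the pairs share mice or cultures, so they need not be independent repeats. By edgeR, 4 genes passed in vehicle on the wild-type background (0.0816% of those tested), 2 under GW501516 on the Ppard-fl/fl background (0.0408%), and 15 in vehicle on that background (0.306%). Averaged over these 3 pairs, 72 genes passed (1.47%), 37 higher (0.755% of those tested) and 35 lower (0.714%). Of the 9 genes called under GW501516, 9 were higher in each of the 3 pairs, and 8 were among the 72. Of all 4902 genes tested, 2380, 2464 and 2363 were higher in these pairs, in the order above. The exception was Gm9625, with 2.78 ± 0.82 (adjusted p = 0.0846, edgeR). Over all genes tested, 54% had the same sign in the average and under GW501516. Of the 72, 69 had the same sign under GW501516 and 35 also had an unadjusted p under 0.05 there.

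Itch and Rep15 were higher in every library of the double genotype than in every Ppard-fl/fl library. Itch had 116 to 139 counts against 29 to 38 under GW501516, and 119 to 153 against 39 to 56 in vehicle. AA465934 had 23 to 57 counts against 1 to 4 under GW501516 and 32 to 66 against 2 to 5 in vehicle. In vehicle on the wild-type background its null libraries had 71, 65, 29, 1 and 2 counts, so libraries 4 and 5 were low there too. Gm6278 was high in 1 of 5 double-genotype libraries under GW501516, at 102 counts, with 2 to 12 in the others. Psca had 3.90 ± 0.57 in the mean of the 3 pairs (adjusted p = 2.03e-05, edgeR) with 3.65 to 4.19 in each.

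**Figure D3:**
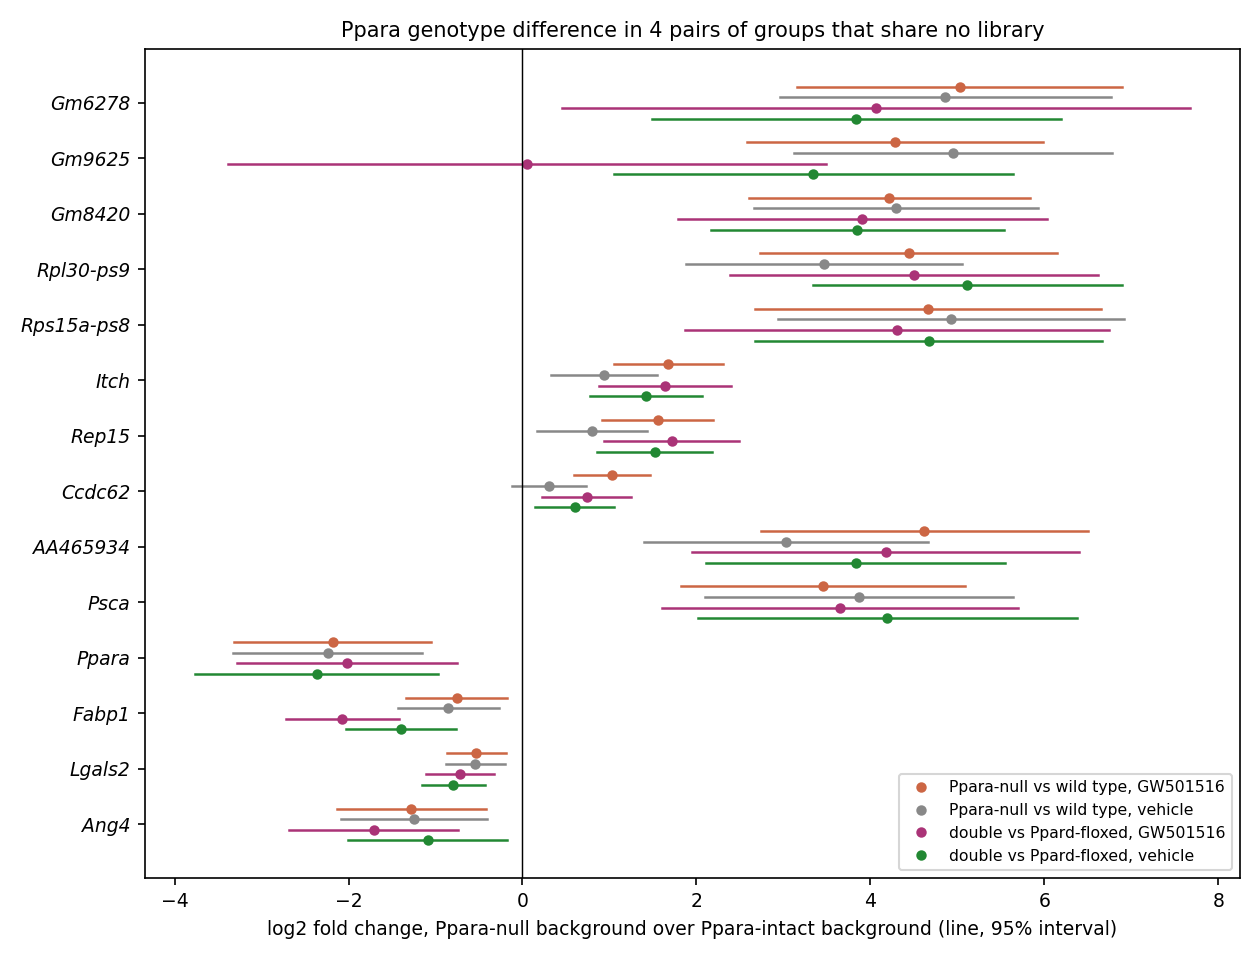
Log2 fold change and 95% interval (edgeR) of Ppara-null over Ppara-intact libraries in 4 pairs of groups that share no library, for the 9 genes that passed under GW501516 and for Psca, Ppara, Fabp1, Lgals2 and Ang4. Each gene keeps its sign in all 4 pairs; Gm9625 on the Ppard-fl/fl background under GW501516 is at 0.05 with an interval from -3.39 to 3.48.

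No gene passed for a difference between the genotype effect under GW501516 and that in vehicle (edgeR; 163 genes at an unadjusted p under 0.05, and 0 calls with DESeq2 and with limma-trend). The fitted difference for Itch was 0.74 with a 95% interval from -0.13 to 1.61. For Ccdc62 it was 0.73, from 0.12 to 1.33 (unadjusted p = 0.0195), and for Ppara 0.06, from -1.78 to 1.90.

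Fabp1, the liver-type fatty acid binding protein of enterocytes, had 15035, 26535, 12399, 10639 and 23788 counts in wild type and 7527, 12934, 9663, 10478 and 12744 in Ppara-null. In CPM only the fifth null library, at 27840, lay above the lowest wild-type library, at 26250. The levels were 38430 ± 14240 and 23030 ± 4264 CPM (SD, n = 5 each). The log2 fold change under GW501516 was -0.76 ± 0.29, with a 95% interval from -1.33 to -0.18, and it passed, among the alternatives run, only without a filter on low counts (adjusted p = 0.694 with the filter and 0.00107 without, edgeR). Fabp1 was lower in all 4 pairs, and in the mean of the other 3 it fell by 1.44 ± 0.18 (adjusted p = 2.01e-06, edgeR). GW501516 against vehicle, which shares these libraries, gave 1.18 in wild type and 1.28 in Ppara-null.

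The Fabp1 promoter holds a near match of the receptor repeat, and it is shown because Fabp1 passed, lower, in the mean of the other pairs. The stretch is chr6:71199752-71199826 of GRCm38 (plus strand), from the RefSeq promoter, and the capitals mark a match on the minus strand with 1 mismatch, from -67 to -55 relative to the RefSeq start.
Fabp1 promoter: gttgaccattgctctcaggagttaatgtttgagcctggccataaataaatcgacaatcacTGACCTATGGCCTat

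The motif searched was a direct repeat of AGGTCA with 1 free base (N) between the copies, on both strands, with up to 2 mismatches, from 250 bases before to 50 after each RefSeq start. A match was found in 169 of 3789 promoters of tested genes, or 4.46%. Of 6 PPAR target genes with a promoter, 3 held one (Fabp1, Plin2 and Creb3l3), of 18 mitochondrial oxidation genes with one, 3, and of 15 peroxisomal genes with one, 1 (6.67%). Only 2 of the 9 called genes had a promoter in the table, and neither held one. A match is a description of letters, not a binding site.

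The other PPAR targets lay on the lower side without passing. Of 16 listed targets, 9 were tested, 9 of 9 were lower in Ppara-null and none passed, beside 0.184% of all genes, and 4 had an unadjusted p under 0.05. Their median log2 fold change was -0.46, against -0.01 over all genes tested. In vehicle 4 of the 9 were lower, with a median of 0.14, and in the mean of the other 3 pairs 7 were lower, with a median of -0.29 and 1 call. Acot1, a thioesterase that releases fatty acids from coenzyme A, had 22, 37, 16, 41 and 30 counts in wild type and 17, 21, 11, 18 and 24 in Ppara-null. Its log2 fold change was -0.72 ± 0.27, and GW501516 against vehicle gave 2.78 in wild type and 1.70 in Ppara-null. Angptl4, a secreted inhibitor of lipoprotein lipase, had -0.29 with a 95% interval from -0.71 to 0.13, and Plin2, a lipid droplet coat protein, -0.40, from -0.90 to 0.11. Pdk4, which restrains pyruvate oxidation, had 0 to 4 counts in each library of either genotype.

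Peroxisomal fatty acid genes were mostly lower. Of 18 tested, 13 were lower and 5 higher, none passed, and 5 had an unadjusted p under 0.05, with a median of -0.19. Hsdl2, a peroxisomal dehydrogenase-like protein, had 22, 18, 29, 13 and 23 counts in wild type and 6, 15, 13, 11 and 9 in Ppara-null, a log2 fold change of -0.98 ± 0.31 (adjusted p = 0.483, edgeR). The transporter Abcd3 had -0.52 ± 0.18 (adjusted p = 0.603) and the carnitine transferase Crot -0.43 ± 0.19 (adjusted p = 0.961, both edgeR). Crot fell by 0.52 ± 0.14 in the mean of the other pairs (adjusted p = 0.0313, edgeR).

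Of 20 mitochondrial fatty acid oxidation genes tested, 13 were lower and none passed, with a median of -0.11 that reached 0.0020 under 1 of the alternatives. In the mean of the other pairs 19 of the 20 were lower and 2 passed, beside 0.714% of all genes passing lower. One of those was Eci2, an isomerase for unsaturated chains, with -0.60 there (adjusted p = 0.000913) and -0.30 ± 0.16 under GW501516 (adjusted p = 0.989, both edgeR). The other was Acaa2, with -0.38 there (adjusted p = 0.0439) and the opposite sign under GW501516, 0.06 ± 0.16 (adjusted p = 0.989, both edgeR). Cpt1a, the entry step of mitochondrial oxidation, had 14, 17, 8, 23 and 22 counts in wild type and 13, 18, 11, 23 and 13 in Ppara-null. The log2 fold change was -0.14 with a 95% interval from -0.67 to 0.39, and its sign turned to 0.12 within libraries 1 to 32 and to 0.018 without wild-type library 4. Cpt2, the second carnitine transferase, had -0.80 ± 0.37, and Acadvl, the very long chain dehydrogenase, -0.29 ± 0.21.

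**Figure D4:**
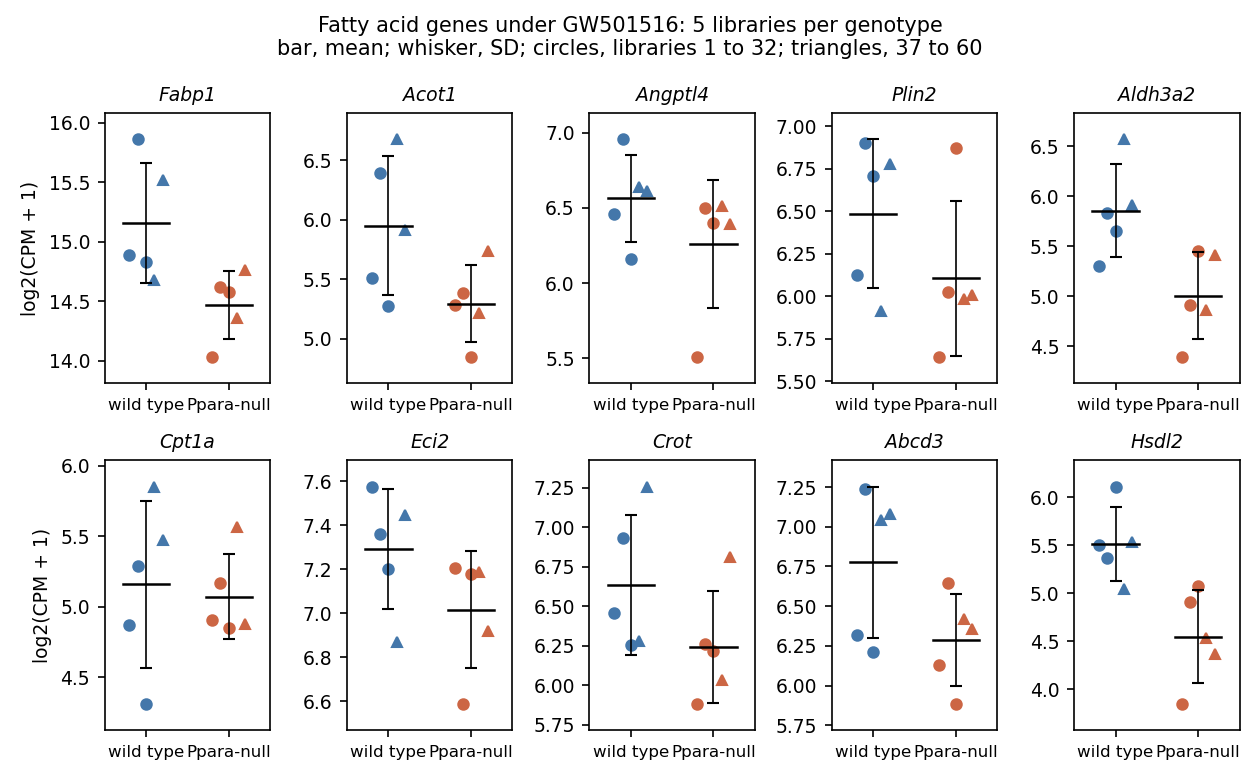
Level of 10 fatty acid genes as log2 of CPM plus 1 in each of 5 wild-type (blue) and 5 Ppara-null (orange) libraries under GW501516; bar, mean; whisker, SD; circles, libraries numbered 1 to 32; triangles, 37 to 60. The groups overlap in these genes, and none passed; log2 fold changes run from -0.98 for Hsdl2 to -0.14 for Cpt1a.

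Lipid synthesis and handling showed no call. Of 11 fatty acid synthesis genes, 10 were lower with a median of -0.14, and the malic enzyme gene Me1 had -0.67 ± 0.33. Chylomicron genes were lower in 8 of 10 with a median of -0.09, and lipid droplet genes in 6 of 10 with -0.03. Cholesterol synthesis genes were lower in 15 of 25, with a median of -0.02.

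Cell type markers gave no call either. Of 9 stem cell markers tested, 7 were lower and 2 higher, with a median of -0.33. Lgr5 was not among those tested and lay on the higher side. It had 2 or 3 counts in every Ppara-null library. In wild type it had 2.24 CPM in library 2 and 0 in the others. Olfm4, a marker of crypt base cells, had 24 to 34 counts in 4 wild-type libraries and 18 in the other, and 17 to 23 in Ppara-null, with -0.48 ± 0.30 (adjusted p = 0.989, edgeR). Goblet cell genes were higher in 6 of 7 with a median of 0.11, led by the lectin Zg16 at 0.59 ± 0.25. Enteroendocrine genes were lower in 6 of 8, led by the incretin Gip at -0.70 ± 0.29, and enterocyte genes in 9 of 16 with a median of -0.04. Of 14 Paneth cell genes, 8 were lower and 6 higher, with a median of -0.03. Defa5, a Paneth cell defensin, was higher, with all 5 null libraries above all 5 wild-type libraries in CPM. It had 0.65 ± 0.30 (adjusted p = 0.967, edgeR). Ang4, a secreted antimicrobial ribonuclease of Paneth cells, had 209, 155, 122, 147 and 125 counts in wild type and 42, 25, 25, 120 and 115 in Ppara-null. Null libraries 1 to 3 were low and the other 2 were near wild type, and Ang4 passed within libraries 1 to 32 and without a filter. Ang4 had -1.28 ± 0.42 (adjusted p = 0.559, edgeR) and in the mean of the other pairs -1.35 (adjusted p = 0.00147, edgeR). Fewer cells of a type and less RNA per cell cannot be told apart in these bulk libraries.

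All 9 genes of regenerative, fetal-like epithelium that were tested were higher, with a median of 0.35, and none passed. S100a6, a calcium-binding protein, had 631 to 1145 counts in wild type and 838 to 1494 in Ppara-null, with 0.50 ± 0.22 (adjusted p = 0.967, edgeR). Clu, a secreted chaperone of injured epithelium, had 0.55 ± 0.46 and Ly6e 0.32 ± 0.26, with the opposite sign for Ly6e within libraries 37 to 60. In the mean of the other pairs all 9 were higher too and Ly6e passed, with 0.65 (adjusted p = 0.0214, edgeR). Ly6e lies on chromosome 15 at -10.78 Mb from Ppara, so the limit on linkage given below applies to it.

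**Figure D5:**
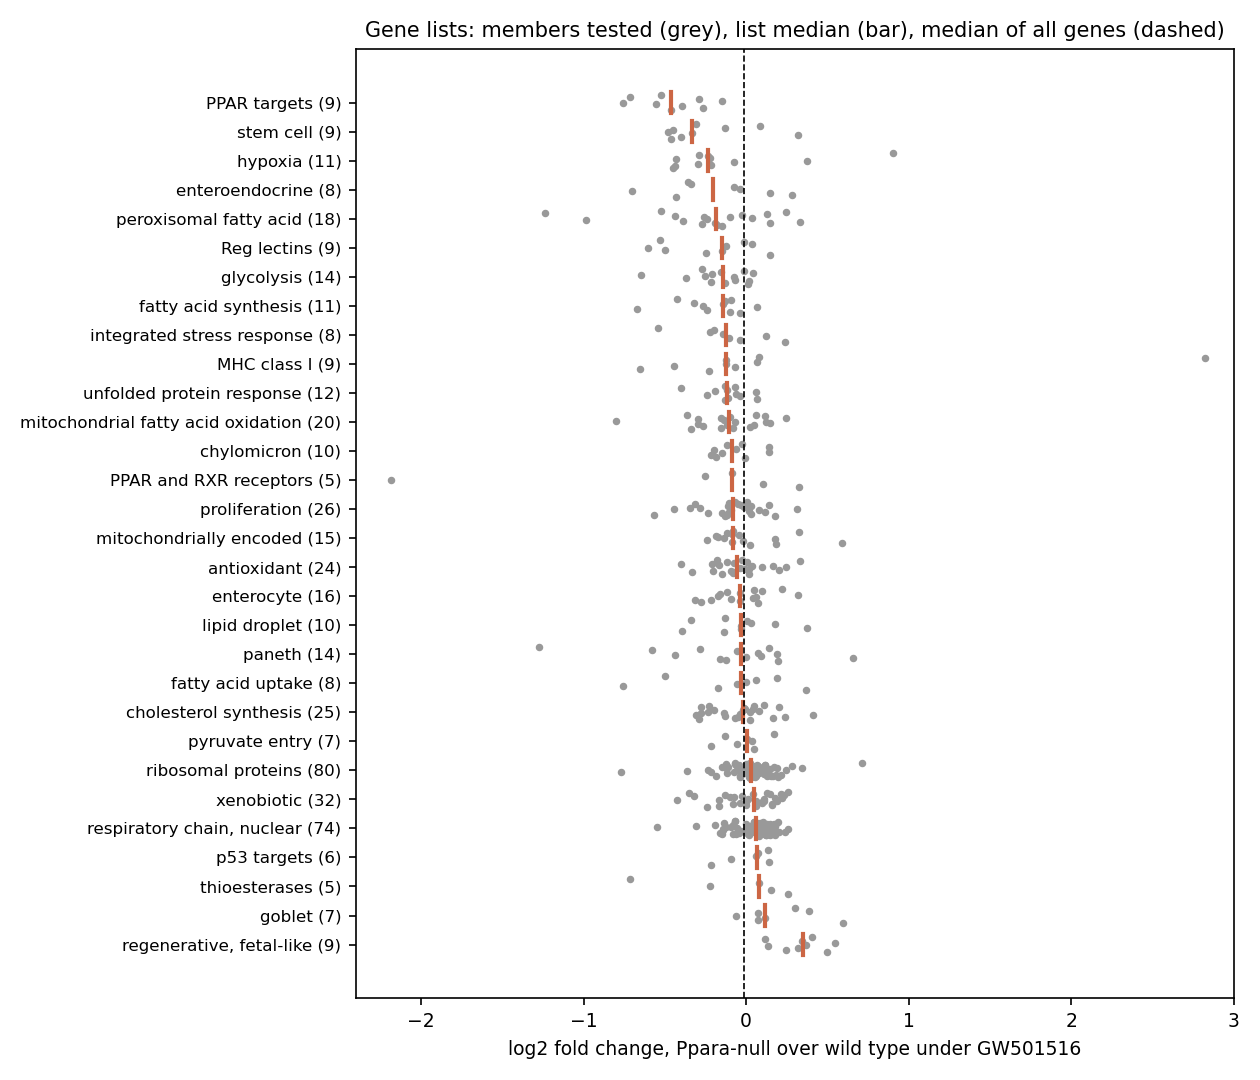
Log2 fold change of Ppara-null over wild type under GW501516 for the members of each gene list with at least 5 tested (grey points; number of members in brackets), with the list median (orange bar) and the median of all genes tested (dashed line at -0.01). PPAR targets have a median of -0.46 and regenerative, fetal-like genes one of 0.35; none of the points is a gene that passed.

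Genes of chromosome 15, which carries Ppara, were also counted. Of 178 genes tested on that chromosome none passed under GW501516, and 11 had an unadjusted p under 0.05, or 6.18% against 4.96% of all genes. In the mean of the other pairs 8 passed, or 4.49% against 1.47% of all genes. Ppara itself is counted among the 11 and among the 8. The 8 also include Ywhaz, at -48.96 Mb from Ppara, and Ly6e of the regenerative genes, at -10.78 Mb. Lgals2, an intestinal galectin at -6.88 Mb from Ppara, had 2070 to 3517 counts in wild type and 1312 to 2701 in Ppara-null. Its log2 fold change was -0.53 ± 0.17 (adjusted p = 0.525, edgeR), and it fell by 0.69 in the mean of the other pairs (adjusted p = 4.09e-05, edgeR). Psca lies at -11.02 Mb from Ppara. The strain history of the null allele is not given in the sources used here, so linkage and loss of PPARα cannot be told apart for these genes.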

How the data were processed

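The counts deposited by the authors are whole numbers for each Ensembl gene. Their second deposited table, of log2 values of CPM plus 1, served only as a check: back-transformed it sums to 1e+06 per library, 88.6% of its nonzero values fall within 0.01 of an integer count, and the largest difference from the count table is 1.47 counts. The submitters' processing notes name edgeR 3.26.8, R 3.6.2, Salmon 1.1.0 and, as the build, mm10; the annotation release, the handling of molecular identifiers and the strand setting are not given in the sources used here. A column's name gave its treatment and genotype, and so its group; 54179 of 54352 gene IDs had a symbol. Of 57 columns, 37 were used; the 20 not used are those with no matching sample title and 1 of 4 columns of Ppard-fl/fl under GW501516.

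Counts were filtered with filterByExpr by group, scaled with TMM and fitted over 8 groups with edgeR 4.0.16 (glmQLFit, glmQLFTest) under R 4.3.3. P-values were adjusted by Benjamini-Hochberg over 4902 genes, and the threshold was 0.05. SE is the log2 fold change over the root of F. DESeq2 1.42.0 and limma 3.58.1 were alternatives. Symbols and positions are from GENCODE M21 (GRCm38). Parents of pseudogenes were found by sequence alignment of transcripts: the best match covering at least 50% of the pseudogene, which 68 of 78 tested pseudogenes had.

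The comparison, the gene lists and the rule for named genes were chosen with earlier results of these data known. The rule names the genes past the threshold (pseudogenes only among the 5 smallest p), the next smallest p up to 24 genes, reference genes of the pathway and up to 4 members per list. Some genes are counted but not reported here. Intervals cover the spread between libraries, and single counts carry counting error on top.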

Additional observations from a re-analysis of the deposited data

Results flagged for a closer look

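Of 44 groups of 5 libraries checked for a library far from the others, 5 had one. The gap to the nearest library exceeded 0.71 of the group's whole range in each. That limit gives about 1 in 20 by chance for normally distributed values, which low counts are not. Where 4 libraries are at 0, as for Ppard and Lgr5 below, the gap is the whole range by construction. Ppard had 8.04 CPM in Ppara-null library 4 and 0 in the other 4. Angptl4 had 44.5 CPM in Ppara-null library 1, with 83.0 CPM in the nearest. Plin2 had 116.1 CPM in Ppara-null library 3, with 64.1 CPM in the nearest. Acadvl had 40.0 CPM in wild-type library 3, with 72.7 CPM in the nearest. Lgr5, the stem cell receptor gene, had 2.24 CPM (1 count) in wild-type library 2 and 0 in the other 4, while all Ppara-null libraries had 2 or 3 counts.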

How the results depend on the processing

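The 9 calls under GW501516 became 5 with limma-trend, 58 without a filter, 0 without the suffix-2 columns, 3 with only the 10 libraries, 19 within libraries 1 to 32, 2 within 37 to 60, 4 with pseudogenes added to parents and 4 with pseudogenes left out. It became 11 with a block for the run of library numbers, and 11 with the Xist against Y-linked covariate, in both by gaining Psca and Rps13-ps1. The 3 calls with only the 10 libraries were all pseudogenes. Leaving out 1 library gave 5 to 11. The 4 calls of vehicle on the wild-type background became 1 with limma-trend, 54 without a filter and 8 with a block for the run of library numbers. The 2 of GW501516 on the Ppard-fl/fl background became 4 with DESeq2, 4 with limma-trend, 52 without a filter, 1 with a mean of at least 10 counts, 10 with the run block and 5 without the suffix-2 columns. The 15 of vehicle there became 70 without a filter and 6 without the suffix-2 columns. Without a filter the mean of the other pairs had 151 calls, not 72, and the test of the difference between treatments 8, not 0. The causes of these shifts were not tested.

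Among 33 genes followed one by one, log2 fold changes turned sign for Cpt1a (0.12 within libraries 1 to 32; -0.28 to 0.018 leaving out 1 library), Acaa2 (-0.097 within 1 to 32; -0.048 to 0.17 leaving out 1), Pparg (-0.12 within 37 to 60; -0.059 to 0.28 leaving out 1) and Gm11942 (-2.39 within 37 to 60). Of 760 values for these 33 genes under the alternatives, 686 kept sign and side of the threshold, 44 lost and 22 gained a call, and 8 turned. Of the other genes covered by the naming rule, 11 of 116 turned sign within libraries 1 to 32 and 21 of 119 within 37 to 60, Ly6e and H2-Bl among the latter. With pseudogenes added to parents, Rps13 turned. The median of mitochondrial oxidation genes ran from -0.17 to 0.0020 and that of ribosomal protein genes from -0.013 to 0.15. No paired analysis was possible because the columns carry no replicate numbers, and the numbers in the sample titles could be tied to columns only by order, which was not used. At 2 to 20 counts per library, differences smaller than the intervals given are not detectable.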

Other observations

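Of 74 nuclear-encoded respiratory chain genes, 54 were higher in Ppara-null under GW501516 with a median log2 fold change of 0.06, while in the mean of the other pairs 71 were lower. Of 80 ribosomal protein genes, 52 were higher under GW501516 with a median of 0.03, and 69 were lower in the mean of the other pairs. The ribosomal median ran from -0.013 to 0.15 under the alternatives. None of these genes passed under GW501516, and the difference between the comparisons was not tested.

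Hddc3, a hydrolase gene on chromosome 7, had 0, 2, 0, 3 and 1 counts in wild type and 0, 18, 1, 11 and 18 in Ppara-null under GW501516, so 3 of 5 null libraries were high. Its log2 fold change was 2.83 ± 0.94 under GW501516 (adjusted p = 0.559, edgeR) and 3.78 in the mean of the other pairs (adjusted p = 8.85e-06, edgeR). H2-Bl, of the MHC class I genes, is annotated as a polymorphic pseudogene, and its best match was H2-D1 at 90.4% identity. H2-Bl had 0, 0, 0, 1 and 2 counts in wild type and 9, 7, 7, 0 and 2 in Ppara-null, high in libraries 1 to 3. It had the opposite sign within libraries 37 to 60 and 0.40 in the mean of the other pairs (adjusted p = 0.816, edgeR). Both genes were picked here after their values were seen.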
